A study of Mus musculus with 14 samples.

Results

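Glucocorticoid signalling was followed through 10 genes, the 2 receptors Nr3c1 and Nr3c2 and the 8 targets Fkbp5, Sgk1, Tsc22d3, Zbtb16, Sult1a1, Hif3a, Pdk4 and Plin4. They were taken by symbol from a table of 34193 genes measured by RNA sequencing in the cortex of 14 mice. All 10 were present and all 10 were among the 13815 genes with enough reads to be tested. The mice were C57BL/6J animals of 8 weeks, 7 wild type and 7 littermates heterozygous for a knockout of Dnmt3a, a DNA methyltransferase, with 4 females and 3 males of each genotype. The labels name no treatment for either genotype and no promoter or Cre line for the knockout. The samples are whole tissue, in which fewer cells of a type and less RNA per cell cannot be told apart.

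Corticosterone, the main glucocorticoid of mice, enters cells and binds 2 related nuclear receptors, the glucocorticoid receptor encoded by Nr3c1 and the mineralocorticoid receptor encoded by Nr3c2. Before binding, the receptors are held by heat shock protein chaperones; after binding they enter the nucleus and act on genes through short DNA elements or through other transcription factors. In brain, transcripts such as Fkbp5, Sgk1 and Tsc22d3 rise within hours of stress or hormone and are used as a readout of it. Corticosterone levels, handling and time of collection were not analysed here.

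The animals carry 6 title prefixes, 046, 048 and 119 in males and 047, 139 and 141 in females, whose meaning the labels do not give. Prefix 141 covers 4 animals, 2 of each genotype, and each other prefix covers 1 wild type and 1 heterozygous animal. Prefixes 119 and 141 (6 animals, called set B) stood apart from the others (8 animals, set A) along the first principal component over all genes, which held 34.3% of the variance. Because the 2 sets were named after that was seen, the difference between them is given without a test. The test used instead asks whether any prefixes of the same sex differ. Libraries held 8951835 to 14335406 counts. Dnmt3a itself lay between 84.3 and 118 CPM (read counts scaled to library size) in heterozygous animals and between 124 and 164 CPM in wild type, with no overlap. Markers of cortical neurons were abundant, with medians of 1532 CPM for the glutamate transporter Slc17a7 and 216 CPM for the layer factor Tbr1. The choroid plexus gene Ttr had a median of 1.58 CPM, and the striatal receptor Drd2 ranged from 1.70 to 14.02 CPM.

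The receptors were the steadiest of the 10 genes. Nr3c1 ranged from 201 to 261 CPM over the 14 animals, with a mean of 228 ± 16.5 CPM (SD, n = 14), and Nr3c2 from 39.0 to 49.9 CPM, with a mean of 43.1 ± 3.12 CPM (SD, n = 14). Their coefficients of variation were 7.25% and 7.23%, where the median over all tested genes was 13.4% with quartiles of 9.37% and 19.7%. Counting error alone would give a coefficient of 1.94% in Nr3c1 and 4.45% in Nr3c2. Per kilobase of exon, Nr3c1 reached 29.6 ± 2.15 CPM and Nr3c2 6.66 ± 0.482 CPM (SD, n = 14 each), and the lowest value of Nr3c1, 26.2, lay above the highest of Nr3c2, 7.71. Of the targets on the same scale, Tsc22d3 stood at 26.0 ± 5.75, Zbtb16 at 22.9 ± 3.58 and Sgk1 at 17.98 ± 4.76. Below Nr3c2 came Pdk4 at 3.86 ± 1.30, Fkbp5 at 3.84 ± 0.919, Sult1a1 at 3.08 ± 1.18, Hif3a at 1.49 ± 0.478 and Plin4 at 0.768 ± 0.585. Neighbours in this order overlapped in range except Sgk1 and Nr3c2, where the lowest value of Sgk1 was 12.1.

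The targets varied more than the receptors. Zbtb16 had the smallest coefficient of variation of the 8, 15.7%, followed by Tsc22d3 at 22.1%, Fkbp5 at 23.9% and Sgk1 at 26.5%. Those of Hif3a, Pdk4 and Sult1a1 were 32.2%, 33.6% and 38.4%, and that of Plin4 was 76.1%. Counting error alone would give a coefficient of at most 4.93% in the 4 abundant targets and 17.0% in Plin4. Differences between prefixes held 84.6% of the variance of log2 CPM in Pdk4, 80.8% in Fkbp5, 79.4% in Zbtb16, 79.1% in Tsc22d3, 75.6% in Sult1a1, 67.0% in Hif3a, 51.0% in Plin4 and 50.4% in Sgk1. The share was 75.9% in the receptor Nr3c2 and 39.7% in Nr3c1. Sex was not removed and each prefix holds a single sex, so these shares include any difference between the sexes. Over all tested genes the median share was 59.3% and the upper quartile 75.3%, so Plin4, Sgk1 and Nr3c1 lay below that median and Nr3c2 lay as high as Sult1a1. One wild type male of prefix 119 was highest for 5 of the 8 targets, and one wild type male of prefix 048 was lowest for 5 of the 8.

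**Figure D1:**
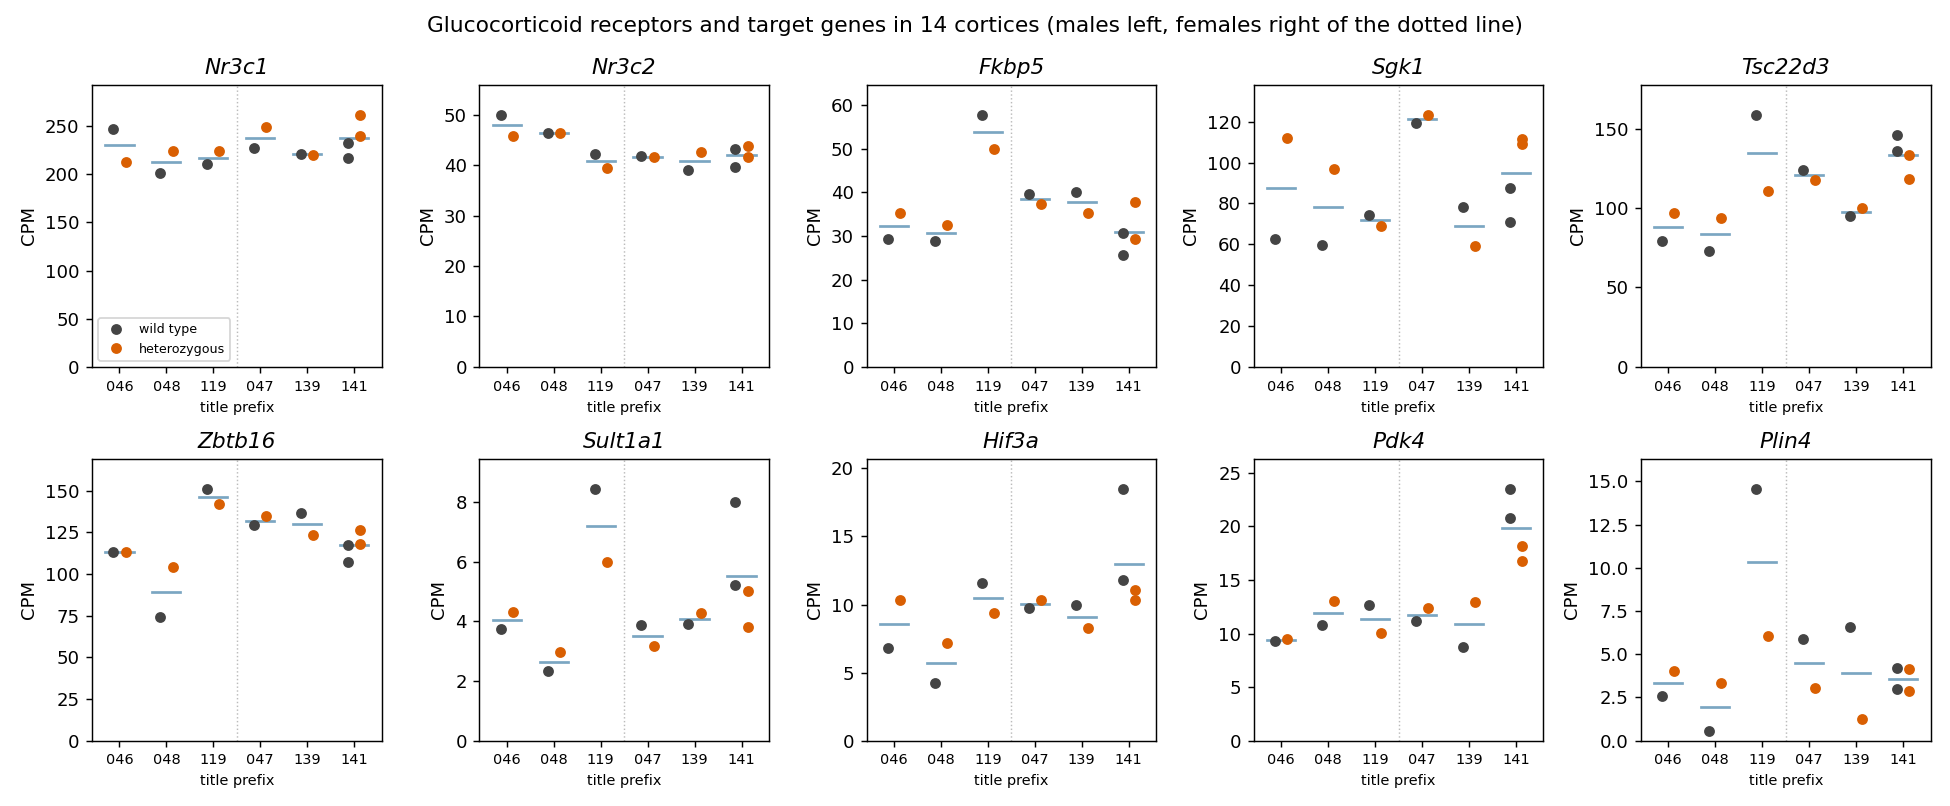
Level of each of the 10 genes in CPM (vertical axes, from 0) in the 14 animals, grouped by title prefix. Points are animals, black for wild type and orange for heterozygous, and horizontal lines are prefix means. The receptors lie in narrow bands, Fkbp5, Zbtb16 and Plin4 are highest in prefix 119, and Pdk4 is highest in prefix 141.

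Whether loss of 1 Dnmt3a allele changed glucocorticoid signalling was asked by comparing 7 heterozygous with 7 wild type animals, with sex and set as further terms. None of the 10 genes passed the test for genotype: edgeR's quasi-likelihood test with Benjamini-Hochberg adjustment over all tested genes called 0 of 10, and 15 of 13815 genes overall (0.109%). DESeq2 also called 0 of 10. None of the 10 had an unadjusted p under 0.05, against 9.82% of all genes. The 2 genotypes overlapped in CPM for all 10, while 0.123% of all genes had separate ranges. Of the 10 estimates 4 were positive and 6 negative, with a median of -0.0066, and the median over all genes was 0.0032.

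Both receptors were measured closely enough for narrow limits. Nr3c1 had a lowest, median and highest value of 201, 221 and 247 CPM in wild type and of 213, 224 and 261 CPM in heterozygous animals. The ranges overlapped for most of their length. edgeR put the log2 fold change at 0.065 (SE 0.0543, adjusted p = 0.713), a heterozygous level of 96.8% to 113% of wild type at 95% confidence. Nr3c2 ran from 39.0 over 42.3 to 49.9 CPM in wild type and from 39.4 over 42.7 to 46.5 CPM in heterozygous animals. The heterozygous range lay inside that of wild type, with an estimate of -0.0025 on the log2 scale (SE 0.0551, adjusted p = 0.990) and an interval from 92.3% to 108%.

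Fkbp5 encodes a co-chaperone that lowers the hormone affinity of the receptor and is itself induced by it. Its lowest, median and highest values were 25.7, 30.7 and 57.7 CPM in wild type and 29.3, 35.4 and 49.8 CPM in heterozygous animals. The highest animal of each genotype came from prefix 119. The estimate on the log2 scale was 0.018 (SE 0.179, adjusted p = 0.982), and the interval, 77.0% to 133% of wild type, was wider than those of the receptors. With the title prefix as a replicate block, the SE fell to 0.0756 at an estimate of 0.0575 (adjusted p = 0.784); that fit called 56 genes (0.405%), none of them among the 10.

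Sgk1, a kinase acting on ion channels and transporters, had the widest gap in medians, 74.5 CPM in wild type (59.7 to 119) and 109 CPM in heterozygous animals (59.1 to 123). The 2 lowest animals included 1 of each genotype, and so did the 2 highest. The estimate of 0.31 on the log2 scale (SE 0.190) missed the threshold (adjusted p = 0.621), with an interval of 92.6% to 166%. Heterozygous animals were above wild type in 4 of the 6 prefixes and below in prefixes 119 and 139. Without a filter on low counts the same estimate passed the test (adjusted p = 9.02e-05), as did that of Plin4 (-0.62, adjusted p = 0.0015); the cause of this change was not tested. The authors' deposited table gives Sgk1 a log2 fold change of 0.11 with an adjusted p of 0.691.

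The other targets gave intervals that included no change. Tsc22d3, which encodes the anti-inflammatory leucine zipper protein GILZ, had an estimate of -0.045 (SE 0.101, adjusted p = 0.911) and an interval of 83.5% to 113%. Zbtb16, a zinc finger transcription factor, was at 0.052 (SE 0.124, adjusted p = 0.916) with 86.1% to 125%. Pdk4, a kinase that holds back pyruvate oxidation, was at -0.011 (SE 0.134, adjusted p = 0.985) with 81.7% to 121%. Hif3a, a hypoxia-inducible factor subunit, was at -0.082 (SE 0.154, adjusted p = 0.884) with 75.6% to 118%. For Sult1a1, a phenol sulfotransferase, the estimate was -0.25 (SE 0.163, adjusted p = 0.625) with 66.5% to 106%. Plin4, a lipid droplet coat protein, was resolved least, at -0.63 (SE 0.486, adjusted p = 0.696) with 30.7% to 137%. Without the wild type animal of prefix 119 the Plin4 estimate was -0.12.

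**Figure D2:**
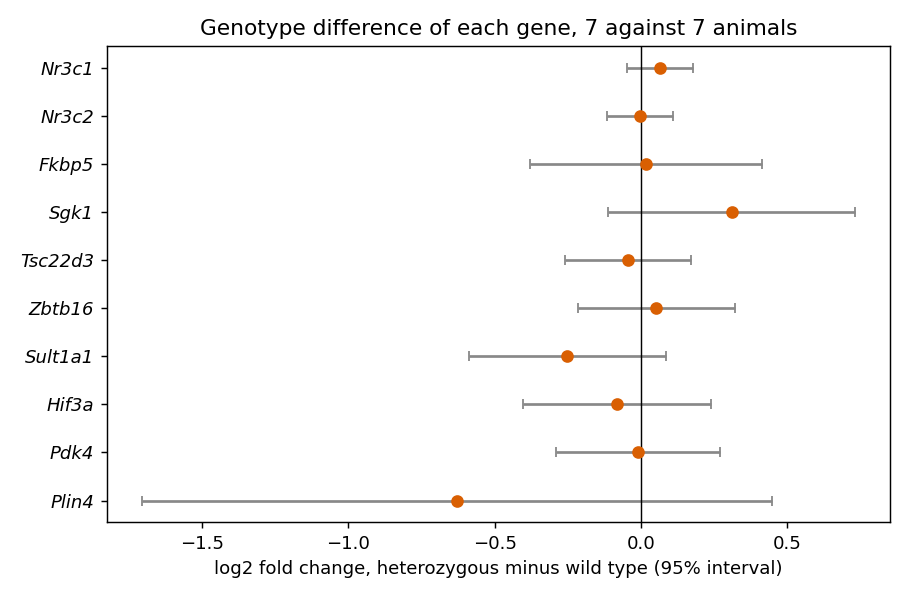
Log2 fold change of each gene, heterozygous minus wild type (horizontal axis), with points for the edgeR estimate and bars for its 95% interval, 7 animals of each genotype. All 10 intervals include 0, the narrowest being those of Nr3c1 and Nr3c2 and the widest that of Plin4.

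Between prefixes of the same sex, 5 targets differed: Fkbp5, Zbtb16, Pdk4, Sult1a1 and Tsc22d3. The test of prefix within sex by edgeR called 5 of the 10 genes at an adjusted p under 0.05, where it called 32.2% of all tested genes. Neither receptor was called (Nr3c1 adjusted p = 0.606, Nr3c2 adjusted p = 0.291). Within set A alone, with prefixes 119 and 141 left out, 0 of the 10 and 33 genes overall were called (0.238%), at smaller numbers of animals.

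Fkbp5 separated prefix 119 from every other animal. In males it stood at 57.7 CPM in the wild type and 49.8 CPM in the heterozygous animal of prefix 119, against 29.2 and 35.2 CPM in prefix 046 and 28.9 and 32.4 CPM in prefix 048, wild type first. In females it was 39.7 and 37.2 CPM in prefix 047, 40.1 and 35.4 CPM in prefix 139, and 30.7, 25.7, 37.8 and 29.3 CPM in prefix 141, the first 2 of which were wild type. Both animals of prefix 119 were above all 12 others, and 3 of the 4 animals of prefix 141 lay below the females of the other prefixes. On the log2 scale prefix 119 was 0.78 (SE 0.116) above the mean of 046 and 048, while prefix 141 was -0.30 (SE 0.101) from the mean of 047 and 139 (adjusted p = 0.000263 for prefix). Leaving out each animal in turn kept the adjusted p at or under 0.00759.

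By prefix mean, Zbtb16 too was highest in prefix 119 and, among females, lowest in prefix 141. The animals of prefix 119 had 151 CPM (wild type) and 142 CPM (heterozygous), those of prefix 046 both 113 CPM, and those of prefix 048 74.3 and 104 CPM. Females had 129 and 134 CPM in prefix 047, 136 and 123 CPM in prefix 139, and 107 to 126 CPM in the 4 animals of prefix 141. Prefix 119 again held the 2 highest animals of the 14. The offset of prefix 119 was 0.54 (SE 0.0937) and that of prefix 141 was -0.16 (SE 0.0782), with an adjusted p of 0.000448 for prefix. The offsets of the 2 prefixes differed by 1.08 (SE 0.154) for Fkbp5 and by 0.71 (SE 0.122) for Zbtb16, given as a description because the prefixes were picked out after the data were seen.

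Pdk4 was high in prefix 141 only. The 4 animals of prefix 141 had 23.5 and 20.8 CPM (wild type) and 18.2 and 16.8 CPM (heterozygous), and all other animals had 8.76 to 13.03 CPM. The 4 animals of prefix 141 were the 4 highest of the 14, with no overlap. In prefix 119 the values were 12.6 CPM in the wild type and 10.0 CPM in the heterozygous animal, within the range of the other males. The offset was 0.81 (SE 0.129) for prefix 141 and 0.10 (SE 0.165) for prefix 119, with an adjusted p of 0.000574 for prefix.

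Sult1a1 and Tsc22d3 were higher in both prefixes of set B. Sult1a1 stood at 8.44 and 5.98 CPM in prefix 119 (wild type first), 5.21, 8.01, 5.01 and 3.81 CPM in prefix 141 (wild type the first 2), and 2.32 to 4.31 CPM in the 8 animals of set A. Of the 6 animals of set B only the last one of prefix 141 lay within the range of set A. Its offsets were 1.13 (SE 0.223) in males and 0.53 (SE 0.195) in females, with an adjusted p of 0.0015 for prefix. Tsc22d3 stood at 158 and 111 CPM in prefix 119 and at 136, 146, 133 and 118 CPM in prefix 141, against 73.2 to 96.8 CPM in prefixes 046 and 048 and 94.6 to 124 CPM in prefixes 047 and 139. Among males both animals of prefix 119 were above the rest, and among females 3 of the 4 of prefix 141 were. The offsets of Tsc22d3 were 0.65 (SE 0.132) and 0.30 (SE 0.110), with an adjusted p of 0.00525.

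The remaining targets did not pass the prefix test. Hif3a was highest in a wild type female of prefix 141, at 18.5 CPM, with the other animals between 4.26 and 11.8 CPM, and had offsets of 0.57 (SE 0.245) in males and 0.42 (SE 0.194) in females (adjusted p = 0.106). It passed by DESeq2 (adjusted p = 0.0303), without a filter on low counts (1.25e-05) and in 4 of the 14 fits that left out 1 animal. Plin4 was highest in the wild type male of prefix 119, at 14.6 CPM from 195 reads, and lowest in a wild type male of prefix 048, at 0.581 CPM from 6 reads. Its offset of 1.91 (SE 0.609) in prefix 119 rests largely on the high animal, the other of that prefix having 6.07 CPM (adjusted p = 0.225 for prefix). Plin4 passed in 1 of the 14 fits that left out 1 animal. Sgk1 was highest in prefix 047, at 119 and 123 CPM, and had offsets of -0.17 (SE 0.253) and 0.022 (SE 0.204) (adjusted p = 0.293). Without a filter on low counts Plin4 (4.65e-19) and Sgk1 (6.6e-12) passed too. The prefix test then called 8 of the listed receptors and targets, and with DESeq2 it called 6. The share of all genes called by prefix in these settings is not given here. These added calls therefore cannot be set against a background.

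**Figure D3:**
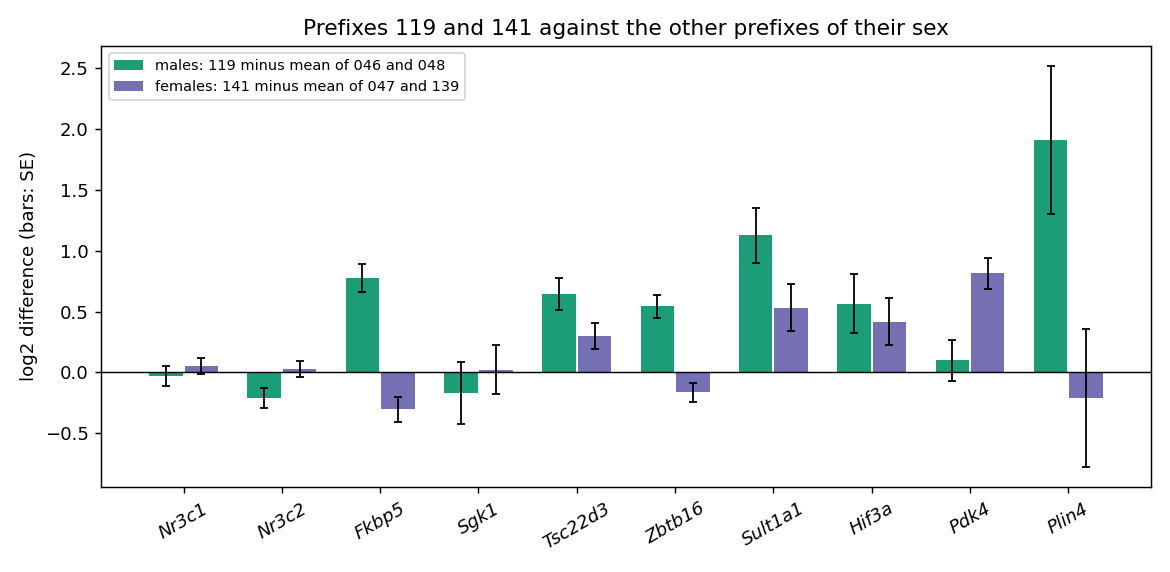
Log2 difference (vertical axis, with SE as error bars) of prefix 119 from the mean of prefixes 046 and 048 in males (green) and of prefix 141 from the mean of 047 and 139 in females (purple). Fkbp5 (0.78 and -0.30) and Zbtb16 (0.54 and -0.16) were high in prefix 119, Pdk4 (0.10 and 0.81) in prefix 141, and Sult1a1 and Tsc22d3 in both.

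Other features of the same animals moved with the sets. The summed level of 12 astrocyte markers was 10325 to 11769 CPM in set A and 13563 to 19363 CPM in set B, and 12 of 12 were higher in set B, with a median log2 difference of 0.38. Summed over 18 immediate early genes, which neuronal activity induces, the level was 1462 to 2396 CPM in set A and 878 to 1685 CPM in set B, and 17 of 18 were lower. Oligodendrocyte markers summed to 3725 to 4852 CPM in set A and 4687 to 6432 CPM in set B (9 of 12 higher), and microglia markers to 306 to 408 and 362 to 464 CPM (10 of 10 higher). Endothelial markers summed to 183 to 239 and 222 to 262 CPM (8 of 10 higher), and neuronal markers to 9657 to 10357 and 9971 to 10833 CPM, although 8 of those 10 genes were lower in set B. Mitochondrially encoded transcripts other than ribosomal RNA made up 0.571% to 0.860% of counts in set A and 1.11% to 1.99% in set B. The part of these in the differences of the targets was not tested.

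Prefixes 119 and 141 also differed from each other in these features. Astrocyte markers summed to a mean of 14053 ± 692 CPM in prefix 119 (SD, n = 2) and 17048 ± 2398 CPM in prefix 141 (SD, n = 4). Prefix 119 holds males and prefix 141 females, so sex and prefix cannot be told apart here. Immediate early genes summed to 960.2 ± 116 CPM in prefix 119 (SD, n = 2) and 1566 ± 150.2 CPM in prefix 141 (SD, n = 4), and clock genes to 1825 ± 67.5 and 2085 ± 71.7 CPM. In prefix 119 the median log2 offset was 0.61 over the 8 targets and -0.0021 over all genes. In prefix 141 the corresponding medians were 0.16 and 0.0047. Scaling of the libraries keeps the median over all genes near no change, so it does not show how unusual a median of 8 genes is.

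**Figure D4:**
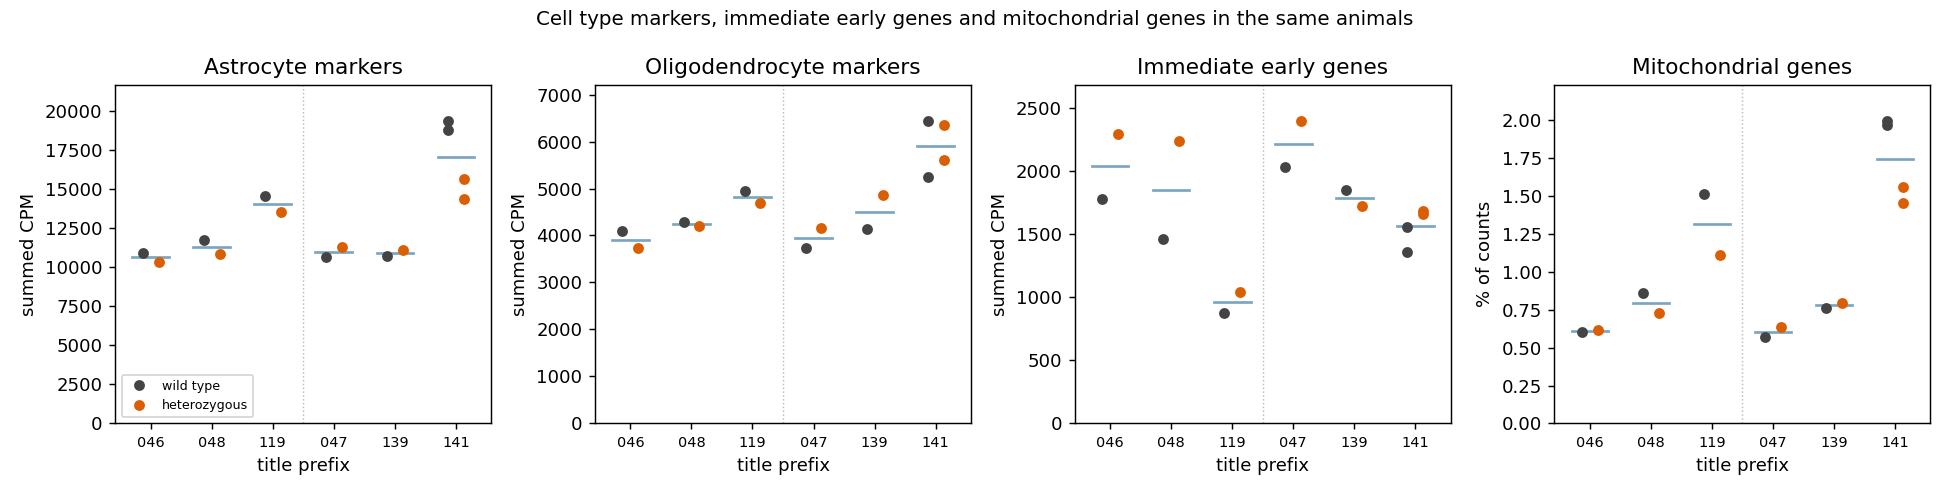
Summed CPM of astrocyte markers, oligodendrocyte markers and immediate early genes, and the percentage of counts from mitochondrially encoded genes other than ribosomal RNA (vertical axes, from 0), in the 14 animals by title prefix. Points are animals, black for wild type and orange for heterozygous, and lines are prefix means; astrocyte sums are 10325 to 11769 CPM in set A and 13563 to 19363 CPM in prefixes 119 and 141.

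Whether the genotype difference itself differed between the 2 sets was tested as an interaction. No gene passed by edgeR (0 of 13815, 0%), although 2036 (14.7%) had an unadjusted p under 0.05. DESeq2 called 250 genes. Without the wild type animal of prefix 119 the edgeR count was 850, and without that of prefix 048 it was 563. Among the 10 genes the interaction was -0.44 for Tsc22d3 (SE 0.169, adjusted p = 0.247 by edgeR), -0.67 for Hif3a (SE 0.259, adjusted p = 0.230), -0.59 for Pdk4 (SE 0.224, adjusted p = 0.221) and -0.62 for Sult1a1 (SE 0.304, adjusted p = 0.344). Without a filter on low counts those of Tsc22d3 (adjusted p = 0.0139), Hif3a (0.0433) and Pdk4 (0.0454) passed, and that of Pdk4 (-0.75) also passed without the wild type animal of prefix 119. These 4 genes had positive genotype estimates in set A (0.15, 0.23, 0.27 and 0.059) and negative ones in set B (-0.29, -0.44, -0.32 and -0.56). In set B 0 of 3 heterozygous animals exceeded the mean of wild type animals of their set and sex for any of the 4, and in set A 3, 3, 3 and 2 of 4 did. These counts restate the estimates in the same animals. For males of set B the wild type mean is 1 animal.

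Fitted on set B alone, with 3 animals of each genotype, the same 4 targets were lower in heterozygous animals. These 4 had the most negative interactions of the 10 genes in the same animals, so the fit on set B is no separate support for them. edgeR called 2304 genes there (16.6%), 1071 of them lower (7.72%), and among these were Tsc22d3 (-0.28, SE 0.0696, adjusted p = 0.00773), Sult1a1 (-0.55, SE 0.175, adjusted p = 0.0286), Hif3a (-0.43, SE 0.139, adjusted p = 0.0326) and Pdk4 (-0.33, SE 0.103, adjusted p = 0.0263). Set A alone gave 0 genes (0%). The calls in set B rest on single animals: without the heterozygous animal of prefix 119 none of the 4 passed, without the wild type one only Hif3a did, and without each animal of prefix 141 in turn 1 to 3 did. All 4 estimates stayed negative in these 6 fits, with Tsc22d3 between -0.36 and -0.15 and Hif3a between -0.60 and -0.21. In set B the astrocyte markers were lower in heterozygous animals for 12 of 12 genes, with a median log2 difference of -0.32, and microglia markers for 10 of 10, with a median of -0.28; neuronal markers were higher for 9 of 10, with a median of 0.23. Their part in the 4 targets was not tested.

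For sex, none of the 10 genes passed the test, and edgeR called 17 genes overall (0.123%). That test averages over the sets, and some differences turned between them. Mean Fkbp5 was 38.1 CPM in females and 31.4 CPM in males of set A, but 30.9 and 53.7 CPM in set B. Means of Zbtb16 were 131 and 101 CPM in set A, then 117 and 146 CPM in set B. For Nr3c2 they were 41.3 and 47.2 CPM, then 42.1 and 40.9 CPM. In set B each sex is a single prefix, and a difference of sex between the sets was not tested. At an unadjusted p under 0.05 (9.95% of all genes), Pdk4 was higher in females by 0.38 (SE 0.140, adjusted p = 0.375) and Hif3a by 0.35 (SE 0.158, adjusted p = 0.477). Both were highest in animals of prefix 141, all of which are female. Without a filter on low counts Pdk4, Hif3a and Sgk1 passed the test for sex. The genotype by sex interaction called 0 genes by edgeR (0%) and 0 by DESeq2, with 316 (2.29%) under 0.05 before adjustment.

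Correlations between the 10 genes were taken across the 14 animals. After removal of genotype, sex and set, 24 of the 28 pairs of targets had a positive correlation, with a median of 0.51, and 4 of the 16 pairs of a receptor and a target did, with a median of -0.13; pairs share animals and libraries, so these are descriptions. The 4 negative pairs of targets all held Pdk4, with r of -0.64 against Fkbp5, -0.64 against Zbtb16, -0.51 against Plin4 and -0.25 against Sult1a1. Title prefix was not removed from these residuals. The log2 offset of prefix 119 minus that of prefix 141 was 1.08 for Fkbp5, 0.71 for Zbtb16 and -0.72 for Pdk4. With genotype and sex removed within set B, r of Fkbp5 and Pdk4 was 0.69 and did not pass (adjusted permutation p = 0.341). Pdk4 was also the target with the highest correlation with Nr3c2 (r = 0.62). Fkbp5 was set against each other gene within each set, 18 relations in all, with p-values adjusted over the 18. In set A (n = 8) it rose with Hif3a (r = 0.86, adjusted permutation p = 0.0172, rho = 0.74, adjusted p = 0.165), Zbtb16 (r = 0.81, adjusted permutation p = 0.0199, rho = 0.95, adjusted p = 0.0103) and Tsc22d3 (r = 0.84, adjusted permutation p = 0.0403, rho = 0.76, adjusted p = 0.165). It fell as Nr3c2 rose (r = -0.90, adjusted permutation p = 0.0172, rho = -0.95, adjusted p = 0.0103). Within set A the sexes did not overlap for Fkbp5 (28.9 to 35.2 CPM in males, 35.4 to 40.1 CPM in females). Nor did they for Nr3c2 (45.8 to 49.9 and 39.0 to 42.7 CPM) or Zbtb16 (74.3 to 113 and 123 to 136 CPM). The permutations moved values across the sexes, so these p-values do not separate a relation from a difference between the sexes. Without the 2 animals farthest from the median of Fkbp5, r was 0.73 for Hif3a, 0.90 for Zbtb16, 0.50 for Tsc22d3 and -0.88 for Nr3c2.

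In set B (n = 6) no relation of Fkbp5 passed. Zbtb16 had r = 0.91 (adjusted permutation p = 0.0542, rho = 0.83) and Plin4 r = 0.85 (adjusted permutation p = 0.0542, rho = 0.66), and Pdk4 had r = -0.83 (adjusted permutation p = 0.109, rho = -0.66). Without the 2 animals farthest from the median of Fkbp5 these were 0.42, 0.14 and -0.26, so they rest on those animals. With genotype and sex removed within each set, none of the 18 passed; in set A r was then 0.81 for Hif3a, 0.52 for Zbtb16, 0.61 for Tsc22d3 and -0.65 for Nr3c2.

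Among 11452 genes with a mean count of at least 50, those whose residuals after genotype, sex and set were most like Fkbp5 over the 14 animals were Nrxn2 (r = 0.95), Dapk1 (0.94), Notch4 (0.93), Trim9 (0.92) and C230096C10Rik (0.92). Zbtb16 came 90th (0.80), Plin4 came 314th (0.71) and Pdk4 came 11000th (-0.64). Title prefix was not removed here, so a high r need not mean likeness from animal to animal. Fkbp5 was highest in prefix 119, but Nrxn2 was lower there (555 and 559 CPM) than in set A (599 to 668 CPM). C230096C10Rik was lower there too (142 and 146 against 148 to 158 CPM). Dapk1 was higher there (143 and 144 against 125 to 137 CPM), and Notch4 and Trim9 overlapped set A. For Sgk1 the nearest were Rhou (0.92), Fosb (0.91), Ccdc117 (0.91), Iffo2 (0.90) and Irf2bp2 (0.89), of which Fosb is an immediate early gene. For Tsc22d3 they were Pou3f2 (0.92), Ccdc3 (0.88), Ppwd1 (0.85), Pitpnm2 (0.84) and Socs7 (0.83), and Plin4 came 120th (0.69).

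The start regions of 3 targets are shown for the binding element of the receptor. RefSeq windows of 300 bases (250 before to 50 after a start, GRCm38.p6, a later build than that of the counts) were found for 8 of the 10 genes, 15 windows in all; Nr3c1 and Zbtb16 had none. The palindrome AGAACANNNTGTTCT, bound by the glucocorticoid receptor, was searched on both strands, as was a single arm of it, AGAACA or TGTTCT, which the palindrome contains. Of all 32851 windows 3 held the palindrome (0.00913%), 1 of them among the 6 of Sgk1, and 19.0% held a single arm. An arm was in 5 of the 15 windows, from Sgk1, Sult1a1 and Tsc22d3. In the stretches below, 5′ to 3′ on the strand of the gene, capitals mark every match. In Sgk1 the palindrome lies 189 to 175 bases and a further arm 242 to 237 bases before the start (chr10:21993640-21993759, plus strand). A single arm lies in Sult1a1 212 to 207 and 34 to 29 bases before it (chr7:126676429-126676648, minus strand) and in Tsc22d3 185 to 180 bases before it (chrX:140600673-140600742, minus strand).
Sgk1: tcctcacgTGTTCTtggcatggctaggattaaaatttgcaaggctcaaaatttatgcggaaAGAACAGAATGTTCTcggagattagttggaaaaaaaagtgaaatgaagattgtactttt
Sult1a1: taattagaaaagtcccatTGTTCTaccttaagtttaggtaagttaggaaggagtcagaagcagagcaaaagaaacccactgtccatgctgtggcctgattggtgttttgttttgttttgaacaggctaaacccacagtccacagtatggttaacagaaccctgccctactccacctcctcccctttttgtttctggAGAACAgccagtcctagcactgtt
Tsc22d3: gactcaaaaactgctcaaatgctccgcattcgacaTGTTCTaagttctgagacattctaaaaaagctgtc
A match describes the letters in these windows and is no evidence of binding.

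The rest of the pathway was followed in lists of receptor chaperones, steroid metabolism, receptor coregulators, other glucocorticoid targets and the corticotropin-releasing hormone system. None of their tested genes, 14, 4, 12, 29 and 4 in that order, was called by genotype. The smallest unadjusted p was that of Hsd11b1, the enzyme that regenerates active glucocorticoid in cells, with a log2 fold change of -0.32 (adjusted p = 0.296 by edgeR). Hsd11b2, which inactivates glucocorticoids, had 0 reads in all 14 animals, and Lcn2, Avp, Ucn, Avpr1a and Crhr2 had too few reads to be tested.

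By prefix, 9 of 14 chaperone and co-chaperone genes passed, against 32.2% of all genes. The heat shock protein genes Hspa8 (adjusted p = 0.00332) and Hsp90ab1 (adjusted p = 0.0103) were among them, with offsets of -0.37 and -0.31 in prefix 141 and of 0.0063 and -0.051 in prefix 119. Ptges3, which encodes the p23 co-chaperone, was higher in both prefixes (0.39 and 0.29). Among coregulators 7 of 12 passed, Ncoa3 among them (adjusted p = 0.00439 by edgeR), and 11 of the 12 were lower in set B, with a median of -0.11. Hsd11b1 was the 1 of 4 steroid metabolism genes that passed, with offsets of 0.38 in prefix 119 and 0.62 in prefix 141. Crhr1, the receptor of corticotropin-releasing hormone, was the 1 of 4 of its list, with offsets of -0.39 and -0.38.

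Of 29 other glucocorticoid targets 14 passed by prefix, in both directions. Gjb6, Glul, Mertk, Sdc4 and Fam107a were higher in set B by 0.53 to 0.67 on the log2 scale; Glul (glutamine synthetase) and Gjb6 (connexin 30) are known as astrocyte genes. Per1, Dusp1 and Arl4d were lower by 0.57 to 0.71 in set B, and their offsets in prefix 119 were -0.86, -1.19 and -0.93; Per1 and Dusp1 also respond to neuronal activity. Over all 29 the median set difference was 0.015, with 16 positive and 13 negative, and over the 8 targets first listed it was 0.45, with 7 positive. By prefix, 7 of those 8 had positive offsets in prefix 119 (median 0.61) and 5 in prefix 141 (median 0.16).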

How the data were processed

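RNA from the cortex of 14 mice (7 per genotype) was made into directional libraries and sequenced as single 50-base reads, per the labels' protocols. Whole-number counts per gene were deposited by the authors; the submitters' processing notes name Trim Galore, Bowtie, STAR, bedtools and build mm9, without versions or roles. Gene annotation and strand setting are not given in the sources used here. A gene and an antisense gene over it can therefore share counts. The authors also deposited a table of the genotype comparison with log2 fold changes, a test score (statistic) and p-values; its log2 values were matched within 5.12e-07 by DESeq2 with shrunken estimates (betaPrior) and terms for sex, set and genotype.

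Counts were tested with edgeR 4.0.16 (R 4.3.3; quasi-likelihood, robust, TMM scaling, filterByExpr), with Benjamini-Hochberg adjustment over all 13815 genes and a threshold of 0.05. The genotype model held sex, set and genotype; prefixes were tested within sex; CPM used TMM library sizes, and log2 CPM a prior count of 2. Named genes were the 10 genes, from each pathway list those called (at most 8 a comparison, smallest p first) or otherwise the 3 with the smallest p, and the 5 genes most like Fkbp5, Sgk1 and Tsc22d3. The genes and lists were chosen with earlier results of these data known. DESeq2 1.42.0, another scaling, no filter, other covariates, single sets and leaving out each animal were alternatives. On simulated counts the genotype fit (13741 genes) recovered 80.8% of changes of 0.5 and 96.9% of 1 on the log2 scale, among changed genes that passed the filter. It also called 11 unchanged genes. The simulation held no differences by sex, set or prefix, so these shares do not give the power for the 10 genes. The SE of the genotype estimate was 0.179 for Fkbp5, 0.190 for Sgk1 and 0.486 for Plin4. Animals of 1 prefix and opposite genotype were correlated in their deviations from the genotype means (r from 0.20 to 0.52 over 9 pairs, and from -0.33 to -0.0054 after sex and set were removed). The labels do not say which prefixes share a litter, so p-values measure the spread between these animals. Exon lengths came from GENCODE M21.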

Additional observations from a re-analysis of the deposited data

Results flagged for a closer look

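Within groups of 4 to 10 animals, 4 of 40 checked groups of values had an extreme animal far from the others by Dixon's criterion, which chance meets in about 1 of 20 groups. Fkbp5 in heterozygous animals was 49.8 CPM in the male of prefix 119, with the other 6 between 29.3 and 37.8 CPM; the wild type animal of that prefix was the highest of its genotype too, at 57.7 CPM. Plin4 was 14.6 CPM in the wild type male of prefix 119, extreme both among wild type animals and among the 6 animals of set B. Hif3a was 18.5 CPM in a wild type female of prefix 141, extreme within set B, where the next was 11.8 CPM.

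Nr3c2 differed in the direction of its genotype difference between the sexes: 4 of 4 heterozygous females lay above the mean of wild type females of their set, and 0 of 3 heterozygous males lay above that of males. The difference of the log2 fold changes was 0.13 (SE 0.111), and the interaction test of edgeR did not pass (adjusted p = 0.9997).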

How the results depend on the processing

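Of the 10 genes, none was called by genotype with DESeq2 size factors, with DESeq2, with sex alone, with the title prefix as a replicate block, in set A alone or without any 1 animal; exceptions were no filter (Sgk1 and Plin4) and set B alone (4 genes). The count of genes called by genotype, 15, was 242 without a filter, 29 by DESeq2, 2 with sex alone, 56 with the replicate block, 2304 in set B, 0 in set A, and 5 to 18 without 1 animal. In set B alone, 1241 to 2403 genes were called without 1 animal, an alternative chosen after seeing the data. The replicate block changed no call among the 10. The sex count of 17 was 261 without a filter, 51 by DESeq2 and 1 with genotype alone, and 2 to 53 without 1 animal. The genotype by set count of 0 was 381 without a filter and 250 by DESeq2, and 0 to 850 without 1 animal; that by sex was 5 without a filter and 0 in each fit without 1 animal. The prefix count of 4448 was 33 in set A alone, also chosen after seeing the data, and 3388 to 4667 without 1 animal, with 5 to 7 of the 10 genes called. Of 4 relations of Fkbp5, 0 passed on residuals.

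Signs turned as follows. For genotype, Nr3c2 was 0.0020 without a filter; in set A alone Tsc22d3 was 0.16, Sult1a1 0.080, Hif3a 0.24 and Pdk4 0.26. Without 1 animal the genotype estimate ran from -0.028 to 0.028 for Nr3c2, -0.061 to 0.18 for Fkbp5, -0.10 to 0.053 for Tsc22d3, -0.032 to 0.15 for Zbtb16, -0.19 to 0.030 for Hif3a and -0.11 to 0.082 for Pdk4. The sex estimate ran from -0.24 to 0.013 for Fkbp5, -0.012 to 0.20 for Zbtb16, -0.20 to 0.048 for Sult1a1 and -0.67 to 0.16 for Plin4. On residuals r with Fkbp5 was -0.18 for Nr3c1 in set A, and in set B 0.45 for Nr3c2, 0.35 for Sgk1, -0.082 for Sult1a1, 0.21 for Hif3a and 0.69 for Pdk4. The causes were not tested. Set B minus set A for Fkbp5 was 0.16, and -0.035 without the wild type animal of prefix 119. Mean counts were lowest for Plin4 and Sult1a1, 55.4 and 55.9 reads an animal. Prefix, set and any shared handling cannot be told apart.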
